A study of Rattus norvegicus with 11 samples.

Results

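Interferon response genes are genes whose transcription rises when a cell senses interferon, and a list of 39 such symbols was followed here in the bladder of rats with partial bladder outlet obstruction (PBOO). The members were chosen by symbol, and 38 of the 39 were found among the 18507 genes of the expression table. Xaf1 was not found under that symbol, so its expression was not analysed and it counts only in the promoter search below. Sorted by role, the 38 genes comprise 4 sensors of viral nucleic acid, 5 transcription factors, 15 antiviral effectors, 4 genes of ISG15 conjugation and ubiquitin ligation, 3 of an ADP-ribosylation complex, 2 guanylate binding proteins and 5 other interferon-induced genes.

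RNA sequencing of Sprague-Dawley rat bladder tissue was compared between PBOO and normal rats at week 4, with 3 PBOO and 3 normal samples, and at week 5, with 2 PBOO and 3 normal samples. According to the study's methods, the rats were adult females, PBOO was produced by a suture tied around the bladder neck and urethra, and the control rats had an abdominal incision only. The same strain was used in all groups and no allele or drug is given in the labels. Expression is given as FPKM, a fragment count scaled by exon length and by the fragments mapped in the sample, and the sequencing depth of each sample is unknown. The study describes the samples of a group as biological replicates, while the labels name no animals.

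Interferons are secreted when sensors in a cell detect viral or misplaced nucleic acid, and they act on receptors that signal through JAK kinases. Type I and type III interferons lead to a complex that contains STAT2 and IRF9 and binds the interferon-stimulated response element (ISRE), whereas interferon gamma acts through the gamma-activated site (GAS). In the bladder, as in other barrier tissues, epithelial, stromal and immune cells can all mount this response.

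To show the sequences through which these genes are known to be regulated, promoters from 250 bases before to 50 bases after the gene start were searched in RefSeq sequences of the GRCr8 build. Of the 39 symbols, 30 were matched. An ISRE was taken as GAAA, any 2 bases and GAAA on either strand, and it was present in 19 of the 30 promoters (63.3%), against 1034 of all 27457 promoters (3.77%). A GAS was taken as TTC, any 3 bases and GAA, which reads the same pattern on both strands, and it was present in 8 of the 30 (26.7%), against 2382 of all promoters (8.68%). ISRE matches overlapped each other in Oas1a, Oas1b and Bst2. In Bst2 a GAS match also overlapped the ISRE match farther from the gene start. The windows below are from genes whose values are described in the text, 6 with an ISRE and 3 transcription factor genes with a GAS but no ISRE. Each runs 5′ to 3′ on the strand of the gene with the motif in capitals.
Irf7, ISRE, chr1:205800068-205800107, minus strand: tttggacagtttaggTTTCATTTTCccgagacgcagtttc
Ifit3, ISRE, chr1:241527267-241527306, plus strand: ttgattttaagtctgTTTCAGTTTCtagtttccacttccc
Rsad2, ISRE, chr6:48788243-48788282, minus strand: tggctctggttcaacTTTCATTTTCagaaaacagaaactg
Oasl2, ISRE, chr12:47383312-47383351, minus strand: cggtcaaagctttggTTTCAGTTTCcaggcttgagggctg
Gbp2, ISRE, chr2:234005681-234005720, plus strand: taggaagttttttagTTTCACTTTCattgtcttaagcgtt
Isg20, ISRE, chr1:142239952-142239991, plus strand: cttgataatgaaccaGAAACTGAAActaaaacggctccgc
Irf1, GAS, chr10:38417778-38417816, plus strand: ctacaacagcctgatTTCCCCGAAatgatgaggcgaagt
Irf8, GAS, chr19:65699089-65699127, plus strand: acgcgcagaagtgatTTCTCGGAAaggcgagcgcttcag
Irf9, GAS, chr15:33065722-33065760, plus strand: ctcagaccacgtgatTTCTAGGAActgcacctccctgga

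The ISRE appeared in these windows in either orientation, read as TTTC on the strand of Irf7, Ifit3, Rsad2, Oasl2 and Gbp2 and as GAAA on that of Isg20. Neither motif was found in the windows of Mx1, Oasl, Cmpk2, Ifi35, Stat2, Herc6, Trim25 or Parp9. A match describes letters in the reference sequence, and binding was not measured in these samples.

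Several facts about the samples bear on the values. Sums of FPKM ranged from 424961 to 564343 per sample. In the week 4 samples 4871 genes were listed at 0 throughout, and 824 of these averaged 10 FPKM or more at week 5, so a listed 0 is not read as absent expression and levels are compared only within a week. Among the members, Herc6 and Ifi44l were listed at 0 in all 6 week 4 samples, which left 36 members for testing at week 4 and 38 at week 5. As a check of the tissue, the summed level of the smooth muscle markers Acta2, Myh11, Actg2 and Des was 11790 to 14388 FPKM in the normal and 30395 to 50669 FPKM in the PBOO samples of week 4, and 14560 to 16032 FPKM in the normal samples of week 5, but 1059 and 608 FPKM in the PBOO samples of week 5. The urothelial markers summed to 4215 to 5142 FPKM in the normal and 2473 to 3146 FPKM in the PBOO samples of week 4, without overlap, and to 4566 to 5439 FPKM and 3942 and 5337 FPKM at week 5. Within that sum, the basal keratin gene Krt5 rose at week 5 (log2 fold change 3.52, adjusted p = 0.00893, limma) while the superficial markers Upk2 and Krt20 fell (-2.39 and -6.47). The other 2 did not pass, with Upk1a at -1.11 (adjusted p = 0.0566, limma) and Upk3a at 0.03 with overlapping groups. The PBOO samples of week 5 therefore carried the bladder label with little of its muscle RNA. In bulk tissue, fewer cells of a type and less RNA per cell cannot be told apart.

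A single normal sample stood apart in these genes at week 4. The median level of the 38 members was 6.80 FPKM in normal replicate 1, 29.5 FPKM in normal replicate 2 and 7.77 FPKM in normal replicate 3, against 7.36, 6.72 and 5.33 FPKM in the 3 PBOO samples. Normal replicate 2 was the highest of the 6 samples in 33 of the 36 members tested, although it was the highest in 18.9% of all genes. It exceeded each of the other 5 samples at least 2-fold in 21 members (58.3%), against 0.398% of all 11320 genes tested. Of the 45 genes with that pattern, 21 were members (46.7%), and no other week 4 sample led a member in this way.

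**Figure D1:**
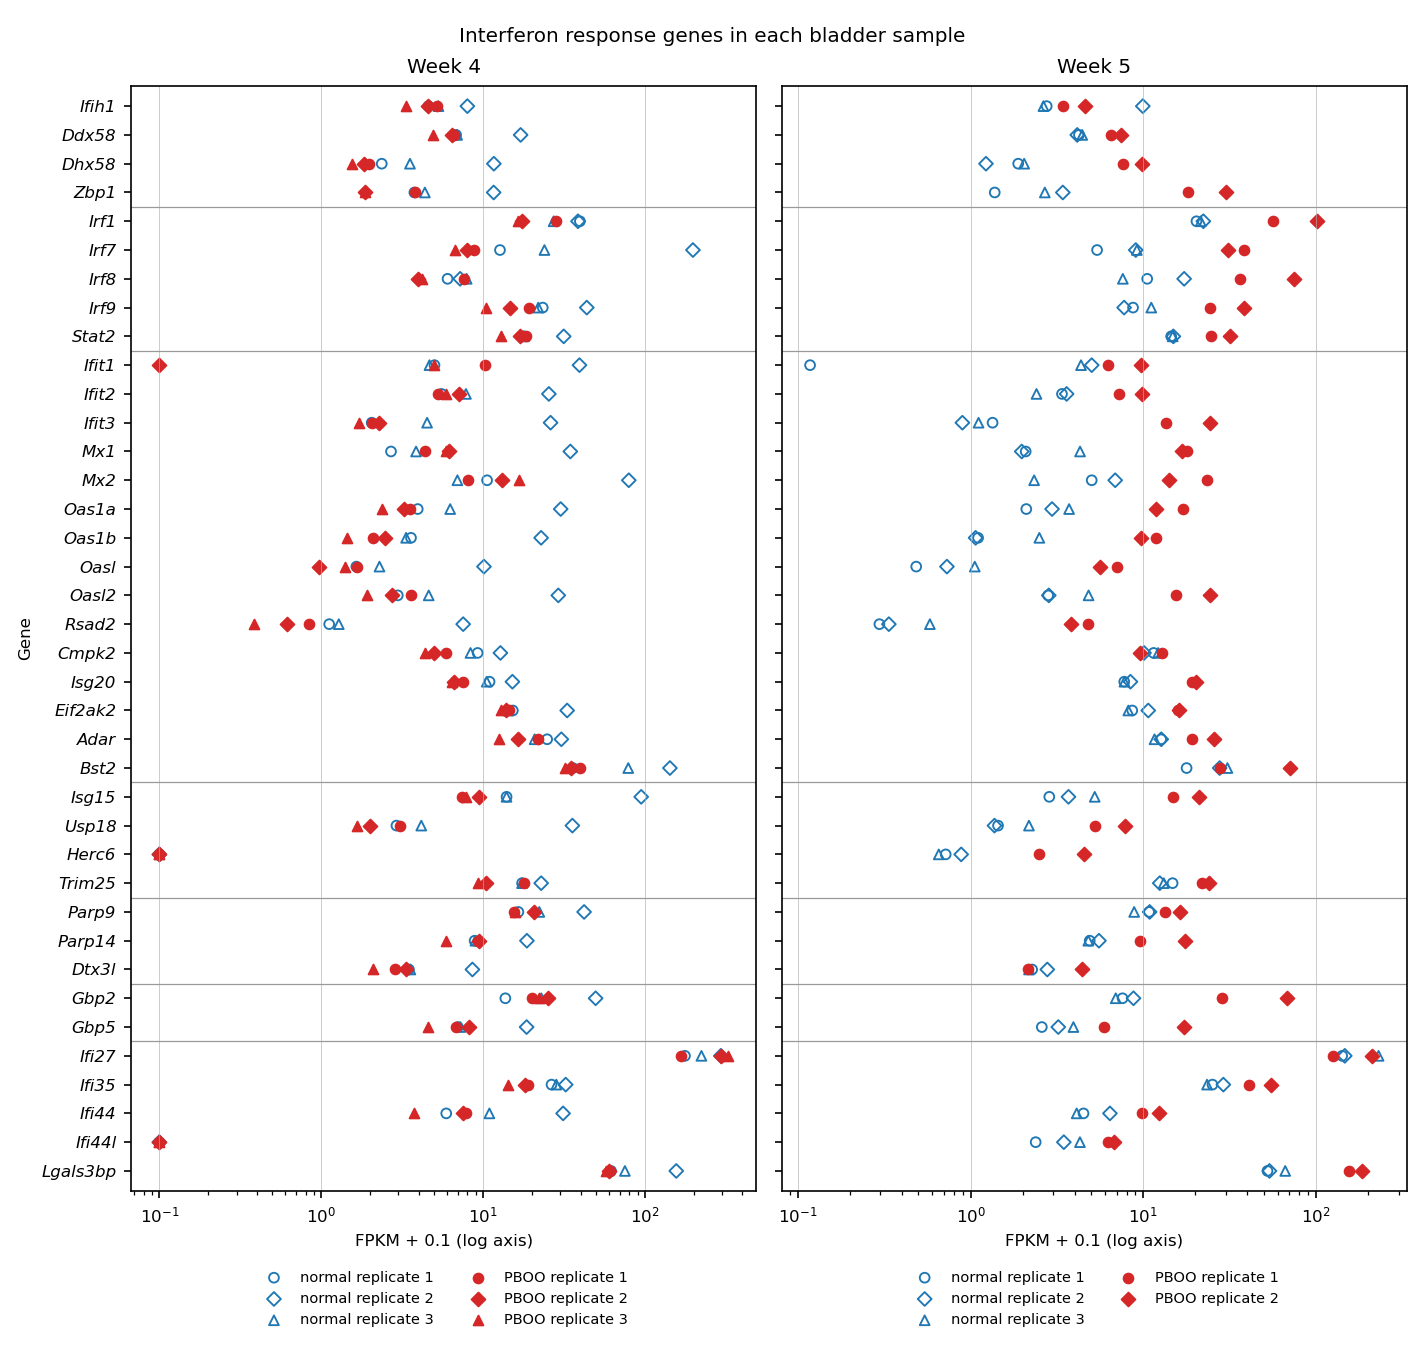
FPKM + 0.1 on a log axis for each of the 38 members in each sample, with normal samples as open blue and PBOO samples as filled red symbols and horizontal lines between role groups. At week 4 the open diamond, normal replicate 2, lies far to the right of the other 5 samples for most antiviral genes (Irf7 198 FPKM against at most 23.8), and at week 5 both PBOO samples lie to the right of the 3 normal samples in 33 of 38 members.

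The size of that lead differed among the roles. Irf7, the transcription factor that amplifies type I interferon production, was 12.6, 198 and 23.8 FPKM in the normal samples and 8.73, 7.85 and 6.58 FPKM in the PBOO samples. All normal samples were above all PBOO samples, and replicate 2 was far above the rest of its group. Irf9, the DNA-binding partner of STAT2, was 23.3, 43.6 and 21.8 FPKM in the normal and 19.0, 14.5 and 10.3 FPKM in the PBOO samples, again without overlap. Stat2, its partner, was 17.7, 31.4 and 17.8 FPKM against 18.4, 16.8 and 12.9 FPKM, and only replicate 2 lay above the highest PBOO sample. Irf1 and Irf8, factors known for induction by interferon gamma, were not led by this sample. Irf1 was 39.5, 38.4 and 27.2 FPKM in the normal and 28.3, 17.2 and 16.4 FPKM in the PBOO samples, so the groups overlapped by 1 sample. Irf8, a factor of myeloid cells, was 5.93, 7.11 and 7.81 FPKM against 7.48, 3.86 and 4.07 FPKM, with overlap and with replicate 2 between the other normal samples.

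Many antiviral effectors showed the lead. Ifit3, which restrains translation of viral RNA together with its relatives, was 1.95, 26 and 4.41 FPKM in the normal and 1.97, 2.16 and 1.61 FPKM in the PBOO samples. Rsad2, which encodes viperin, was 1.02, 7.43 and 1.18 FPKM against 0.736, 0.513 and 0.284 FPKM. The PBOO samples lay below all normal samples for Rsad2, and for Ifit3 normal replicate 1 fell within their range. Oas1a, an oligoadenylate synthetase that activates RNase L, was 3.85, 30.0 and 6.16 FPKM against 3.46, 3.12 and 2.28 FPKM, and its neighbour Oas1b was 3.48, 22.7 and 3.24 FPKM against 2.00, 2.38 and 1.35 FPKM. Both were lower in every PBOO sample than in every normal sample, with the gap between the groups small beside that within the normal group. The Oas1 genes are near-identical relatives and their reads may have been split between them, so their separate levels are uncertain. Ifit1 was 4.91, 39.3 and 4.56 FPKM in the normal samples and 10.1, 0 and 4.87 FPKM in the PBOO samples, where the listed 0 in replicate 2 sets the size of its fold change. Mx1 and Mx2, dynamin-like GTPases that trap viral particles, were 34.5 and 79.3 FPKM in normal replicate 2, against 2.60 to 6.06 FPKM for Mx1 and 6.84 to 16.5 FPKM for Mx2 in the other 5 samples.

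In the ISG15 group, normal replicate 2 led Isg15 and Usp18 but not Trim25, which was 17.3, 22.7 and 17.3 FPKM in the normal and 17.8, 10.3 and 9.16 FPKM in the PBOO samples. Isg15, the ubiquitin-like modifier, was 13.9, 94.6 and 13.8 FPKM in the normal and 7.25, 9.34 and 7.75 FPKM in the PBOO samples, without overlap. Usp18, which removes ISG15 and dampens the type I receptor, was 2.81, 35.5 and 4.05 FPKM against 2.98, 1.89 and 1.57 FPKM, and the groups overlapped. Of the guanylate binding proteins, GTPases of cell-autonomous immunity, Gbp2 was 13.6, 49.4 and 22.8 FPKM against 19.9, 25.2 and 22.1 FPKM. Ifi27, the most abundant member, was 176, 294 and 223 FPKM against 167, 293 and 325 FPKM, so its groups spanned nearly the same range.

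Compared with the normal tissues, no member passed an adjusted p of 0.05 at week 4 in limma, either higher (0.336% of all genes tested) or lower in PBOO (0.177%). The lowest adjusted p was 0.0543, for Ifi35. At an unadjusted p under 0.05, 14 of 36 members were lower in PBOO (38.9%) and 0 higher, against 26.2% and 5.76% of all genes tested. The groups did not overlap in 13 members, all lower in PBOO (36.1%), and 0 were higher, beside 34.9% and 6.63% of all genes, so the share of separated members was close to the background. Still, 35 of 36 log2 fold changes were below 0, with a median of -0.79 and a range of -2.50 to 0.15, where the median of all genes was -0.25. After scaling of the samples by median ratios the median of all genes was -0.01, and the members lay 0.54 below the median of all genes with and without the scaling. That scaling left 5 members lower at an unadjusted p under 0.05, when 9% of all genes were lower and 11.7% higher.

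The members with the largest fold changes at week 4 had large errors. On the log2(FPKM + 0.1) scale, Ifit1 changed by -2.50 ± 1.75 (SE, adjusted p = 0.331, limma) and Irf7 by -2.33 ± 0.91 (adjusted p = 0.136). Rsad2 followed with -1.93 ± 0.76 (adjusted p = 0.138), Usp18 with -1.80 ± 0.89 (adjusted p = 0.203) and Oas1b with -1.73 ± 0.72 (adjusted p = 0.153). Isg15, Ifit3 and Oas1a had log2 fold changes of -1.69, -1.64 and -1.59 with adjusted p of 0.152, 0.214 and 0.166. The transcription factors Irf9, Irf1, Irf8 and Stat2 had log2 fold changes of -0.98, -0.78, -0.49 and -0.44 with adjusted p of 0.104, 0.0983, 0.251 and 0.261. By contrast, 3 members with modest changes, picked out after their values were seen, had the lowest p-values. Ifi35, an interferon-induced leucine zipper protein, was 26.4, 32.3 and 28.2 FPKM in the normal and 18.9, 18.1 and 14.2 FPKM in the PBOO samples, a log2 fold change of -0.77 ± 0.15. Cmpk2, a mitochondrial nucleotide kinase that lies beside Rsad2, was 9.15, 12.7 and 8.25 FPKM against 5.84, 4.85 and 4.30 FPKM (-0.98 ± 0.21, adjusted p = 0.0614). Isg20, an RNA exonuclease, was 10.9, 15.1 and 10.4 FPKM against 7.46, 6.48 and 6.36 FPKM (-0.82 ± 0.18, adjusted p = 0.0629). In these 3 genes all normal samples lay above all PBOO samples, and they were the only ones of the 14 to keep an unadjusted p under 0.05 whichever of the 6 samples was left out.

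By role, 2 of 4 sensors, 3 of 5 transcription factors, 6 of 15 antiviral effectors, 2 of 3 genes of the ISG15 group tested, 0 of 3 genes of the ADP-ribosylation complex, 0 of 2 guanylate binding proteins and 1 of 4 other genes tested were lower at week 4 at an unadjusted p under 0.05. Of all genes tested, 26.2% were lower in this way, and none of these members passed the adjusted threshold. The 2 sensors were Dhx58, a regulator of the RIG-I family, at -1.37 and Zbp1, a sensor of Z-form nucleic acid, at -1.29 on the log2 scale.

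Because normal replicate 2 carried so much of the signal, the week 4 comparison was repeated without it. The median log2 fold change of the members became -0.51, with the median of all genes at -0.25, and 33 of the 36 fold changes shrank. Members with at least a 2-fold change fell from 14 to 3. At an unadjusted p under 0.05, 8 members were lower (16.8% of all genes) and 1 was higher (4.66%), and 0 passed the adjusted threshold, with a lowest adjusted p of 0.168. The 8 were Irf1, Irf7, Irf9, Oas1b, Cmpk2, Isg20, Isg15 and Ifi35. Irf7 came to -1.17 ± 0.30 and Isg15 to -0.77 ± 0.18, both with smaller errors than before, whereas Ifi35 at -0.68, Irf1 at -0.71 and Irf8 at -0.47 hardly moved. The sign changed in 3 members, with log2 fold changes of 0.75 for Mx1, 0.49 for Mx2 and 0.34 for Gbp2. Mx1 was the member that was higher, at an unadjusted p of 0.0366 (limma).

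**Figure D2:**
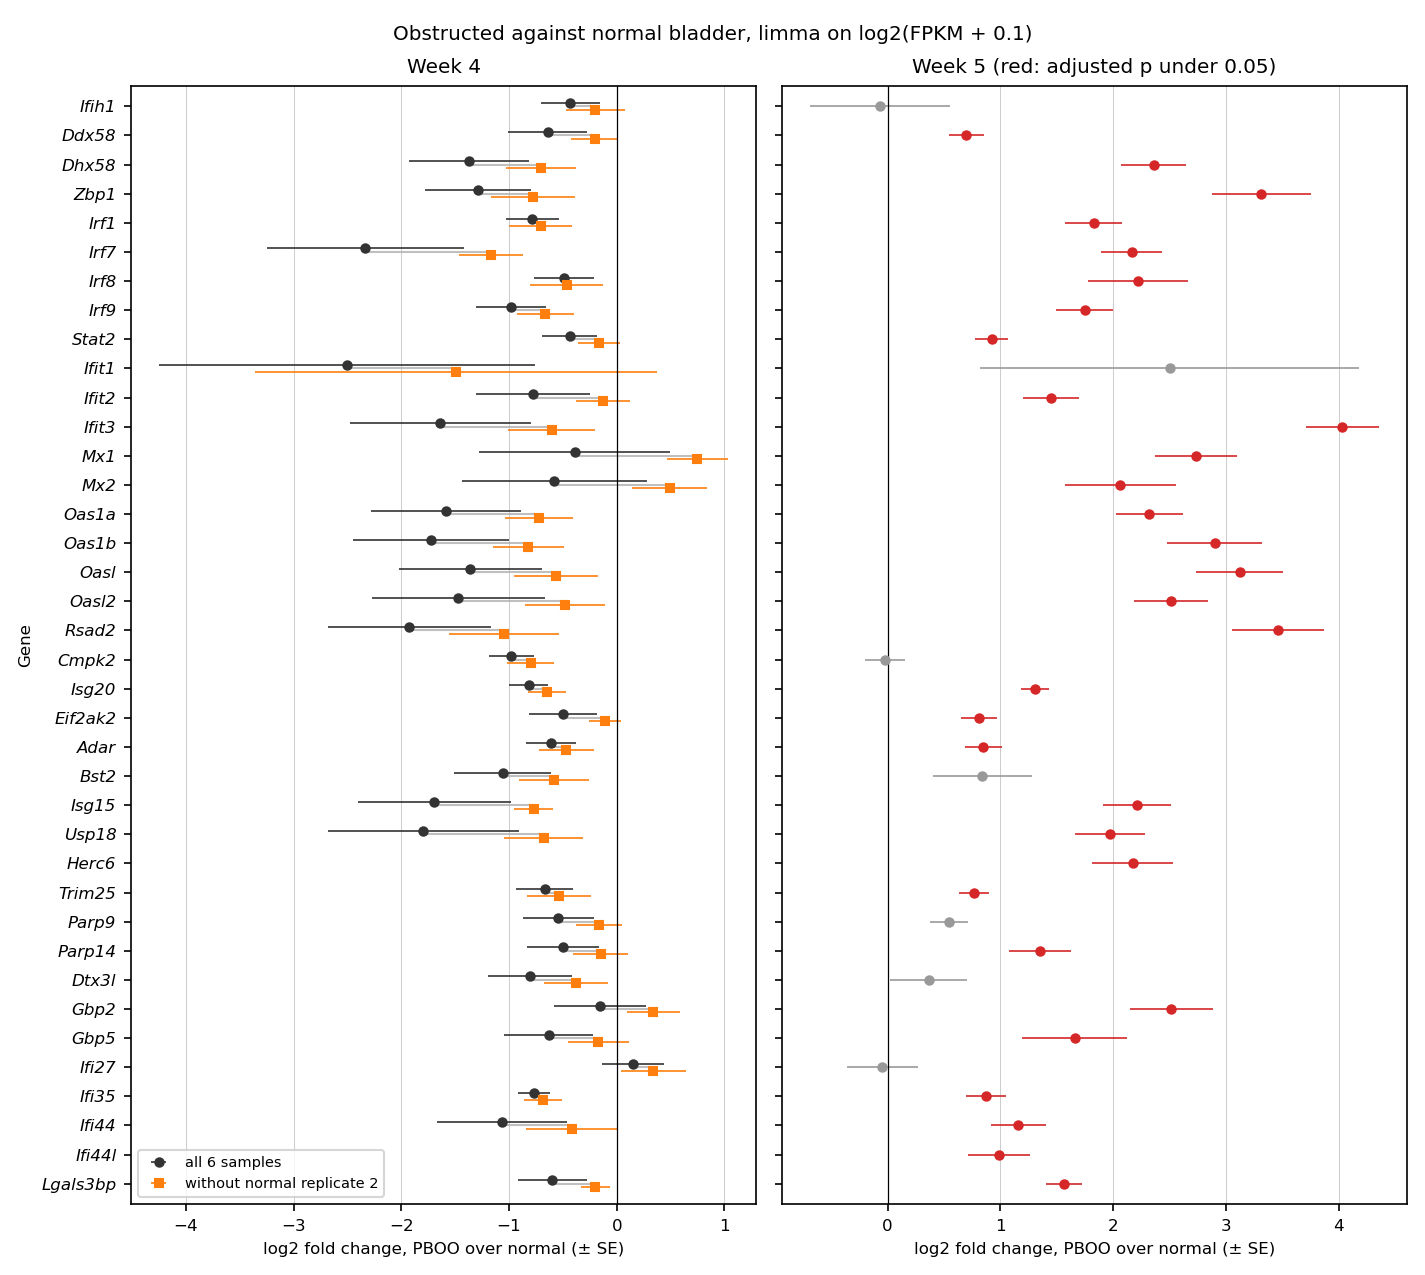
Log2 fold changes of PBOO over normal with their SE from limma, at week 4 with all 6 samples (black circles) and without normal replicate 2 (orange squares), and at week 5 (red where adjusted p was under 0.05, grey otherwise). Most week 4 estimates move toward 0 without that sample (median -0.79 to -0.51), whereas 31 of 38 week 5 estimates are red and to the right of 0.

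Leaving out other week 4 samples also moved the count of members lower at an unadjusted p under 0.05. It was 4 without PBOO replicate 2, 3 without PBOO replicate 3 and 22 without normal replicate 1, when 17.1%, 19.8% and 20.6% of all genes were lower. Without PBOO replicate 1, 7 members passed the adjusted threshold as lower, namely Irf1, Irf8, Cmpk2, Isg20, Adar, Trim25 and Ifi35, when 14.7% of all genes did.

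Markers of leukocytes were compared in the same samples. The summed level of the leukocyte markers was 24.9 FPKM in normal replicate 1, 220 FPKM in normal replicate 2 and 245 FPKM in normal replicate 3, and 135 to 205 FPKM in the PBOO samples of week 4. The macrophage markers summed to 13.8, 121 and 142 FPKM in the normal samples and the neutrophil markers to 2.11, 75.4 and 74.5 FPKM. Normal replicates 2 and 3 were therefore alike in leukocyte markers but differed in interferon response genes, with a median log2 ratio of replicate 2 over replicate 3 of 1.29 for the members and 0.00 for all genes. Normal replicate 1, which was low in leukocyte markers and in fibroblast markers (521 FPKM against 2204 and 2123 FPKM in the other normal samples), was close to replicate 3 in the members, with a median log2 ratio of replicate 3 over replicate 1 of 0.20. Siglech, a marker of plasmacytoid dendritic cells, was listed at 0 in all 6 week 4 samples, which is not read as absent expression. Tcf4, the other marker listed for these cells, was 13.1, 16.1 and 16.3 FPKM in the normal and 14.6, 15.7 and 9.81 FPKM in the PBOO samples.

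**Figure D3:**
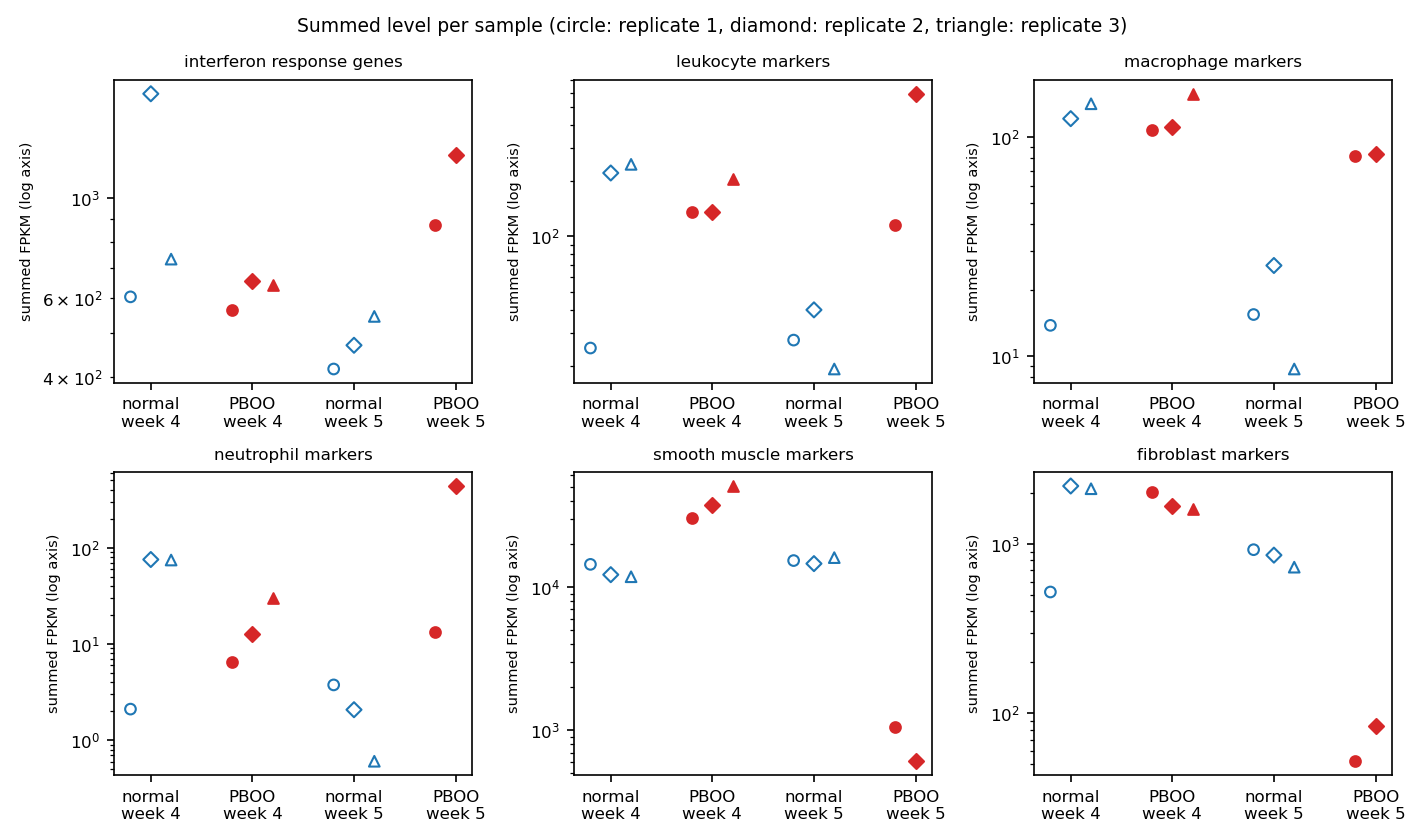
Summed FPKM on log axes of the members and of 5 marker lists in each of the 11 samples, normal in blue and PBOO in red. Normal week 4 replicate 2 (diamond) is the highest in the members (1706 FPKM) but lies beside replicate 3 (triangle) in leukocyte markers (220 and 245 FPKM), and the PBOO samples of week 5 are low in smooth muscle (1059 and 608 FPKM) and fibroblast markers.

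At week 5 the members were higher in PBOO. The median member level was 4.27, 5.87 and 4.52 FPKM in the normal samples and 15 and 16.9 FPKM in the PBOO samples. In limma, 31 of 38 members passed an adjusted p of 0.05 as higher in PBOO (81.6%, against 15.5% of the 13685 genes tested) and 0 as lower (14.5%). At an unadjusted p under 0.05 the counts were 32 higher (24.6% of all genes) and 0 lower (18.8%). The groups did not overlap in 33 members, all higher in PBOO, against 35.3% of all genes higher and 25% lower without overlap. The log2 fold changes had a median of 1.70 and a range of -0.07 to 4.03, where the median of all genes was 0.12. The members lay 1.58 above the median of all genes with and without median-ratio scaling.

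The sensors are the genes upstream of interferon itself. Zbp1 was 1.28, 3.32 and 2.59 FPKM in the normal samples and 18.0 and 29.8 FPKM in the PBOO samples of week 5. The groups were far apart, and Zbp1 rose by 3.32 ± 0.44 on the log2 scale (SE, adjusted p = 0.00450, limma). Dhx58 was 1.79, 1.13 and 1.94 FPKM against 7.48 and 9.72 FPKM, and Ddx58, which encodes RIG-I, was 4.14, 4.05 and 4.33 FPKM against 6.38 and 7.33 FPKM. Both rose without overlap, by 2.36 and 0.70 on the log2 scale. Ifih1, which encodes MDA5, was 2.66, 9.83 and 2.54 FPKM against 3.32 and 4.52 FPKM and did not pass the test. Its normal replicate 2 lay above both PBOO samples, and without that sample its log2 fold change was 0.56 in place of -0.07.

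All 5 transcription factors rose at week 5, and all without overlap. Of all genes tested, 15.5% were higher at an adjusted p under 0.05 (limma) and 35.3% were higher without overlap. Irf1 was 20.2, 22.2 and 21.4 FPKM in the normal samples and 56.3 and 101 FPKM in the PBOO samples, a log2 fold change of 1.83 ± 0.25 (adjusted p = 0.00529, limma). Irf8 was 10.4, 17.1 and 7.51 FPKM against 36.0 and 74.3 FPKM (2.22 ± 0.44, adjusted p = 0.0162). In both genes PBOO replicate 2 was the higher of the pair. Irf7 was 5.30, 8.94 and 9.07 FPKM against 38.1 and 30.7 FPKM (2.16 ± 0.27, adjusted p = 0.00399), and here PBOO replicate 1 was the higher one. Irf9 was 8.62, 7.64 and 11 FPKM against 24.3 and 38.2 FPKM (1.75 ± 0.25, adjusted p = 0.00588). Stat2 was 14.4, 14.8 and 14.7 FPKM against 24.4 and 31.7 FPKM, the smallest change of the 5 and the tightest normal group (0.92 ± 0.15, adjusted p = 0.00840).

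Among the antiviral effectors, 12 of 15 rose at week 5, beside 15.5% of all genes. Ifit3 was 1.24, 0.797 and 1.01 FPKM in the normal samples and 13.4 and 24.1 FPKM in the PBOO samples, the largest change of any member (4.03 ± 0.32, adjusted p = 0.000936, limma). Rsad2 was 0.197, 0.237 and 0.482 FPKM against 4.65 and 3.73 FPKM (3.46 ± 0.41, adjusted p = 0.00315). These normal levels are near the 0.1 FPKM added before taking logs, so the fold change of Rsad2 is understated by this scale. Oasl, an OAS-like protein, was 0.385, 0.630 and 0.958 FPKM against 6.97 and 5.49 FPKM (3.12 ± 0.39, adjusted p = 0.00368, limma). Its relative Oasl2 was 2.71, 2.74 and 4.72 FPKM against 15.3 and 24.2 FPKM (2.52 ± 0.33, adjusted p = 0.00429, limma). Oas1b was 1.01, 0.970 and 2.40 FPKM against 11.7 and 9.61 FPKM (2.90 ± 0.42, adjusted p = 0.00585). Mx1 was 1.99, 1.88 and 4.20 FPKM against 17.8 and 16.7 FPKM, so that its PBOO samples nearly coincided (2.73 ± 0.37, adjusted p = 0.00472). In all of these the lowest PBOO sample was well above the highest normal sample. Isg20 was 7.65, 8.32 and 7.68 FPKM against 19.1 and 20.2 FPKM, a smaller change of 1.31 ± 0.12 with the lowest error of the effectors (adjusted p = 0.00158). Oas1a and Mx2 rose by 2.32 and 2.07 and Ifit2 by 1.45, and in Oas1a and Mx2 PBOO replicate 1 was the higher of the pair. The smallest changes among those that rose were in Eif2ak2, the kinase PKR, at 0.81 and in Adar, an RNA editing enzyme, at 0.85.

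The effectors that did not pass were Ifit1, Cmpk2 and Bst2. Ifit1 was 0.0179, 4.93 and 4.26 FPKM in the normal samples and 6.11 and 9.62 FPKM in the PBOO samples, and the near-absent value of normal replicate 1 gave its log2 fold change of 2.50 an SE of 1.68. Cmpk2 was 11.4, 9.995 and 12.1 FPKM against 12.7 and 9.43 FPKM, with overlap and a log2 fold change of -0.02, although the adjacent Rsad2 rose. Bst2, a tethering factor for budding virus, was 17.7, 27.6 and 30.6 FPKM against 27.8 and 70.1 FPKM, where 1 PBOO sample lay within the normal range.

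All 4 genes of the ISG15 group rose at week 5, beside 15.5% of all genes. Isg15 was 2.76, 3.59 and 5.14 FPKM in the normal samples and 14.8 and 20.9 FPKM in the PBOO samples, a log2 fold change of 2.22. Usp18, Herc6, a ligase for ISG15, and Trim25, a ubiquitin ligase that acts on RIG-I, rose by 1.97, 2.17 and 0.77 on the log2 scale. Of the guanylate binding proteins, Gbp2 was 7.48, 8.67 and 6.82 FPKM against 28.6 and 67.9 FPKM (2.52 ± 0.37, adjusted p = 0.00607, limma), and Gbp5 rose by 1.66 (adjusted p = 0.0461). Gbp5 missed the threshold with a pseudocount of 1 FPKM, without the filter, with median-ratio scaling and without the eBayes trend (adjusted p from 0.0526 to 0.0660), and it was 0.90 without PBOO replicate 2. In the ADP-ribosylation complex only Parp14 rose (1.35), whereas the partners Parp9 and Dtx3l had log2 fold changes of 0.54 (adjusted p = 0.0592) and 0.36. Lgals3bp, a secreted glycoprotein, was 52.2, 53.6 and 66.2 FPKM in the normal samples and 154 and 185 FPKM in the PBOO samples, the highest level among the members that rose. Of the other interferon-induced genes, Lgals3bp, Ifi44, Ifi44l and Ifi35 rose by 1.57, 1.16, 0.99 and 0.87, and Ifi27 did not pass the test at -0.05. The call of Ifi44l (adjusted p = 0.0462, limma) was lost without the filter, with median-ratio scaling, without the eBayes trend and whichever sample was left out (adjusted p from 0.0508 to 0.127).

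Leaving out single week 5 samples gave between 21 and 32 members higher at an adjusted p under 0.05. The lowest counts were 21 without normal replicate 1 and 22 without normal replicate 3, when 5.61% and 6.88% of all genes were higher, and the highest was 32 without PBOO replicate 1, when 23.1% were. In all, 20 of the 31 members passed whichever of the 5 samples was left out, among them the sensors Dhx58 and Zbp1 and the factors Irf1, Irf7, Irf9 and Stat2. Irf8 did not pass without PBOO replicate 2 or without normal replicate 1.

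The promoter motif was set beside these changes. At week 5, members with an ISRE in the window had a median log2 fold change of 1.46 and 14 of 18 passed the adjusted threshold. Members without it had a median of 1.75 and 9 of 11 passed, and 15.5% of all genes passed as higher. At week 4, the medians were -0.82 for 17 members with an ISRE and -0.72 for 10 without. Normal week 4 replicate 2 was at least 2-fold above every other sample in 11 of the 17 members with an ISRE and in 2 of the 10 without. It was so in 8 of the 9 members whose promoter was not matched, namely Ddx58, Dhx58, Zbp1, Ifit1, Ifit2, Mx2, Isg15 and Usp18, with Adar the other, so the contrast covers only part of the genes with this lead. The 3 transcription factor genes printed with a GAS and no ISRE, Irf1, Irf8 and Irf9, were not among those 2-fold leads and all rose at week 5.

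Markers of other cells also differed between the groups at week 5, with leukocyte sums higher and fibroblast sums lower in PBOO. The leukocyte markers summed to 19.2 to 40.0 FPKM in the normal samples and to 115 and 591 FPKM in the PBOO samples, and neutrophil markers to 0.605 to 3.76 FPKM against 13.2 and 437 FPKM. T cell markers summed to 5.27 to 7.999 FPKM against 12.8 and 42.4 FPKM. Macrophage markers summed to 8.72 to 25.9 FPKM against 81.9 and 83.6 FPKM, and Cd68 gave most of it. Of the 5 macrophage markers, only Cd68 was higher at an adjusted p under 0.05 (limma). The groups overlapped in the others, with log2 fold changes of 0.84 for Csf1r, 1.14 for Adgre1, -0.39 for Cd163 and -0.53 for Mrc1. Fibroblast markers summed to 730 to 927 FPKM in the normal samples and to 52.1 and 84.6 FPKM in the PBOO samples. The part of these shifts in the rise of the members was not tested. The median log2 ratio of PBOO replicate 2 over replicate 1 was 0.42 for the members and 0.04 for all genes tested.

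Genes known for induction by interferon gamma, a separate list of 12, were set beside the members. At week 5, 8 of 12 were higher in PBOO at an adjusted p under 0.05, beside 15.5% of all genes, with a median log2 fold change of 2.44. Ido1, which degrades tryptophan, was 4.05 FPKM in PBOO replicate 1 and 139 FPKM in PBOO replicate 2, and the T cell attractant Cxcl9 was 2.02 and 34.7 FPKM. PBOO replicate 2 was at least 2-fold above replicate 1 in 10 of these 12 genes, with a median log2 ratio of 1.35, and in 5 of the 38 members. Among all genes tested it was so in 1409 of 13685, with a median log2 ratio of 0.04. Cxcl10 went the other way, with 65.7 and 39.2 FPKM. At week 4, 4 of the 10 genes of this list that were tested were lower at an unadjusted p under 0.05 (limma), beside 26.2% of all genes. They were Psmb8, Psmb9, Tap1 and Cxcl10. Normal replicate 2 exceeded normal replicate 3 at least 2-fold in 1 of the 10, beside 89 of all 11320 genes tested.

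**Figure D4:**
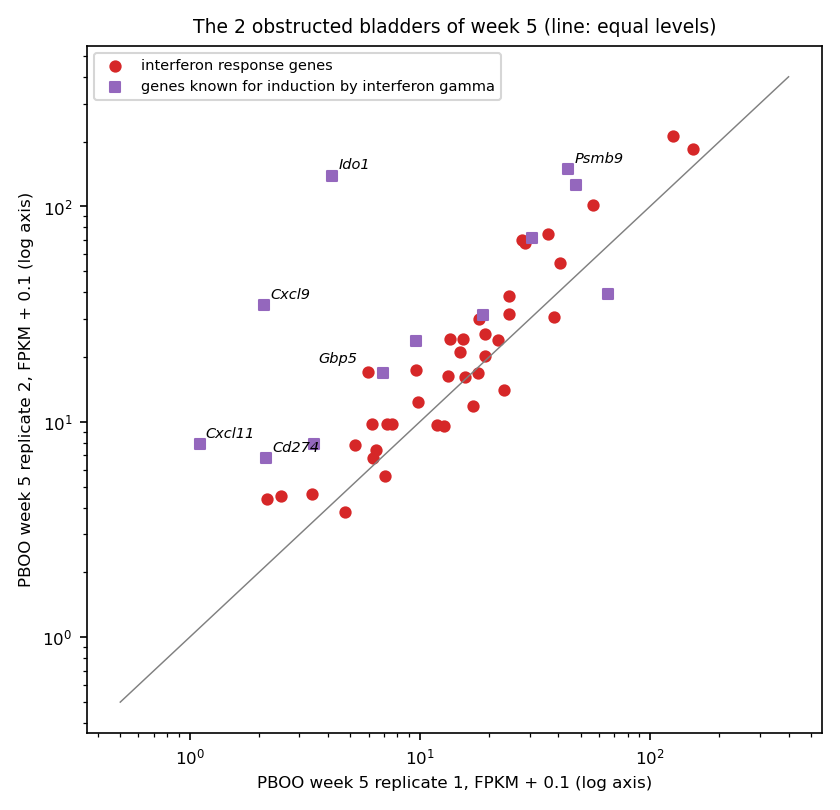
FPKM + 0.1 of PBOO week 5 replicate 2 against replicate 1 on log axes, for the members (red circles) and for genes known for induction by interferon gamma (purple squares), with the line of equal levels and names on genes at least 1.5 log2 units apart. The members lie near the line (median log2 ratio 0.42), and 10 of the 12 squares lie at least 2-fold above it.

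The 4 interferon genes found in the table were mostly at or near its lower limit. Ifna4, Ifne, Ifnk and Ifng were listed, and none reached the mean of 0.5 FPKM needed for the test in either week. Ifnb1, Ifna1, Ifna2, Ifna5, Ifna11, Ifnl1 and Ifnl3 were not found under these symbols, so their levels are unknown. Ifng, the gene of interferon gamma, was 2.13 FPKM in PBOO week 5 replicate 2 and 0.252 FPKM in normal week 4 replicate 2, and was listed at 0 in the other 9 samples. Of the receptor genes, 5 of 6 rose at week 5 at an adjusted p under 0.05 (limma), beside 15.5% of all genes. The log2 fold changes were 1.04 for Ifnlr1, 0.91 for Ifngr1, 0.72 for Ifngr2, 0.69 for Ifnar2 and 0.62 for Il10rb, and Ifnar1 was at 0.01. Ifnar2 was just under the threshold (adjusted p = 0.04999, limma). At week 4, Ifngr2 at -0.50 and Il10rb at -0.27 were lower at an unadjusted p under 0.05 among 5 tested, beside 26.2% of all genes. None passed the adjusted threshold. Of the JAK kinase genes, Tyk2 rose at week 5 (0.60, adjusted p = 0.0154, limma) and Jak1 and Jak2 did not pass.

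Upstream and downstream of the receptors, other lists of the pathway also shifted at week 5. Of genes that lead to interferon production, 6 of 10 tested rose at an adjusted p under 0.05 (limma), beside 15.5% of all genes. The largest changes were in the kinase gene Ikbke (2.08), the transcription factor gene Irf5 (1.70) and the adaptor gene Myd88 (0.99). Of the feedback inhibitors, 4 of 5 rose, beside the same 15.5% of all genes. Socs3 was at 2.74 and Socs1 at 1.5, the latter just under the threshold (adjusted p = 0.04997, limma). At week 4 none of either list passed the adjusted threshold, and 3 of 10 and 1 of 5 were lower at an unadjusted p under 0.05, beside 26.2% of all genes.

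Whether the PBOO effect differed between the weeks was tested with an interaction over all 11 samples. The effect was higher at week 5 in 28 of 36 members at an adjusted p under 0.05 (77.8%, against 26.5% of the 11296 genes tested) and lower in 0 (13.5%). The median difference was 2.45 on the log2 scale, against 0.35 for all genes. With median-ratio scaling 23 members were called, when 13.7% of all genes were higher and 18.5% lower, and the members lay 2.10 above the median of all genes with and without the scaling. Without normal week 4 replicate 2, 28 members were called, 27 of them the same, when 21.5% of all genes were higher. The median difference was then 1.89, against 0.35 for all genes. The week 4 and week 5 samples may have been processed apart, as the lists of genes at 0 differ. Their column names differ too, with the suffix Input in every week 4 sample and in no week 5 sample. Week and processing cannot be told apart in the levels.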

How the data were processed

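One expression table of 18507 rat gene symbols and 11 bladder samples was analysed. According to the methods, the authors trimmed paired reads from TruSeq libraries, aligned them with HISAT2, assembled transcripts with StringTie and deposited FPKM values from featureCounts. The submitters' processing notes also name bcl2fastq 2.0, DESeq2 and limma, and they give the mouse build mm10, although the table holds rat symbols. The rat build, annotation and strand of counting are not given in the sources used here. The table holds no read counts, so the DESeq2 test of the methods was not run.

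Values were taken as log2(FPKM + 0.1) for genes averaging 0.5 FPKM or more across the compared samples. PBOO and normal samples were compared within each week, and the PBOO effect between weeks, in R 4.3.3 with limma 3.58.1 (lmFit, eBayes with a trend), with Benjamini-Hochberg adjustment over all genes tested and a threshold of 0.05. All p-values are two-sided. The groups came from the sample labels, which call the controls normal. The fits were first tested on made-up data. Alternatives were a pseudocount of 1 FPKM, no filter, median-ratio scaling, eBayes without a trend, a replicate block and leaving out each sample.

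The members, lists and tests were chosen with earlier results of these data known. Values of every sample are given, in each week, for the 8 members with the largest absolute log2 fold changes and for Irf1, Irf7, Irf8, Irf9 and Stat2. Further members are named where they did not pass, changed sign or stood out, and these were picked after their values were seen. Other lists are given by counts, with the interferon and receptor genes named and up to 4 more genes by size of change. Leukocyte sums use the T cell, B cell, NK cell, macrophage and neutrophil markers, Ptprc and Siglech. Results for some genes of the pathway are not reported here. Promoter sequences are from RefSeq (GRCr8). Python 3.11.15 made the tables (numpy 2.4.6, pandas 2.3.3) and matplotlib 3.10.9 the plots.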

Additional observations from a re-analysis of the deposited data

Results flagged for a closer look

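The PBOO effect differed between weeks 4 and 5 in 28 members by the interaction test (limma, adjusted p under 0.05), and each value here is the log2 fold change at week 5 minus that at week 4. Among the sensors it was 1.34 for Ddx58, 3.73 for Dhx58 and 4.60 for Zbp1. Among the transcription factors it was 2.61 for Irf1, 4.50 for Irf7, 2.71 for Irf8, 2.73 for Irf9 and 1.36 for Stat2. The antiviral effectors gave 2.23 for Ifit2, 5.67 for Ifit3, 3.91 for Oas1a, 4.63 for Oas1b, 4.48 for Oasl, 3.99 for Oasl2, 5.39 for Rsad2, 0.95 for Cmpk2, 2.12 for Isg20, 1.31 for Eif2ak2 and 1.46 for Adar. Isg15 gave 3.91, Usp18 3.77, Trim25 1.44, Parp14 1.86, Gbp2 2.67 and Gbp5 2.29. The other interferon-induced genes gave 1.64 for Ifi35, 2.23 for Ifi44 and 2.16 for Lgals3bp. For Cmpk2 the difference came from log2 fold changes of -0.98 at week 4 and -0.02 at week 5, and it was no longer called with median-ratio scaling or without any 1 of normal week 4 replicate 2, PBOO week 4 replicates 2 and 3, PBOO week 5 replicate 1 and normal week 5 replicates 1 and 2. Of the 28 members, 20 were called whichever of the 11 samples was left out, and the count ranged from 21 to 31. With all samples, 26.5% of all genes were called higher. The count of 21 came without PBOO week 4 replicate 3, when 23.2% of all genes were higher. The count of 31 came without normal week 4 replicate 1, when 23.6% were. Mx1 and Bst2 missed the threshold with adjusted p of 0.0529 and 0.0533 (limma). No test of outlying samples was run within the groups of 2 or 3 samples.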

How the results depend on the processing

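The depth of the samples is unknown and 2 to 3 samples a group limit every error given here. At week 4 the count of members lower at an unadjusted p under 0.05 was 14, 5 with median-ratio scaling and 8 without the eBayes trend. The shares of all genes lower were 26.2%, 9% and 24.5%. When single samples were left out the count was 3 to 22, with 19.8% of all genes lower at 3 and 20.6% at 22. Members lower at an adjusted p then numbered 0 to 7, with 14.7% of all genes at 7. Members higher at an unadjusted p numbered 0 to 1, with 4.66% of all genes at 1. At week 5 the median log2 fold change of 1.70 became 1.45 with a pseudocount of 1 FPKM and 1.41 to 1.90 when single samples were left out. All other counts and medians stayed in the same direction and within 1.5 times the main count or 1 SD of the main median. The cause of these shifts was not tested.

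Members with small fold changes changed sign, and none of these had passed an adjusted p of 0.05. With median-ratio scaling Gbp2 at week 4 was 0.10. With the replicate block, Cmpk2 was 0.035 and Ifi27 was 0.18 at week 5. When single samples were left out, the log2 fold change at week 4 spanned -0.59 to 0.34 for Gbp2, -1.09 to 0.75 for Mx1 and -1.27 to 0.49 for Mx2, each positive only without normal replicate 2, and -0.033 to 0.45 for Ifi27. At week 5 it spanned -0.24 to 0.19 for Cmpk2, -0.15 to 0.88 for Dtx3l, -0.42 to 0.33 for Ifi27 and -0.40 to 0.56 for Ifih1.

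The replicate numbers of the labels share only a number. Deviations from the group means of same-numbered PBOO and normal samples correlated at 0.154, -0.0241 and 0.232 at week 4 and at -0.000813 and 0.124 at week 5. With the replicate block, 18 members at week 4 were lower by the unadjusted p (28.9% of all genes) and 0 by the adjusted p, 28 were higher at an adjusted p at week 5 (8.34%), with a median of 1.74, and 29 had a higher effect at week 5 than at week 4 (20.3%). At week 5 the block cost the adjusted calls of Ddx58, Eif2ak2, Adar and Trim25 and added Bst2.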

Other observations

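Of the 45 genes that normal week 4 replicate 2 led at least 2-fold over each other week 4 sample, 21 were members, and close relatives of the members were among the others. Oas2, an oligoadenylate synthetase, was 0.362, 7.87 and 1.03 FPKM in the normal samples of week 4, Slfn4, a Schlafen gene, was 6.74, 59.7 and 9.28 FPKM, and Rtp4 was 3.19, 31.2 and 5.66 FPKM. The class Ib gene RT1-T24-3 was 16.5, 156 and 13.2 FPKM, and Ifi27l2b was 115, 828 and 110.1 FPKM. The chemokine gene Cxcl10 was 4.77, 21.2 and 5.83 FPKM. The immediate early genes Egr3 and Fosb, which respond to handling and to many stimuli, were also led by this sample, with 0.942, 7.84 and 0.894 FPKM and with 3.33, 25.2 and 9.06 FPKM. These genes were named after their values were seen.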
